A study of Mus musculus with 90 samples.

Results

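The genes described here are 9 genes of the gonadal hormone axis, taken by Entrez identifier from the expression matrix, in which all 9 are listed among 20414 genes. They are the gonadotropin receptors Fshr and Lhcgr, the inhibin and activin subunits Inha, Inhba and Inhbb, follistatin (Fst), anti-Müllerian hormone (Amh) and its receptor Amhr2, and the transcription factor gene Foxl2. RNA-sequencing covered 15 tissues of normal female mice, C57BL/6 and 10 weeks old by the sample labels (the study's methods give C57BL/6J and a younger age), with 3 libraries in estrus and 3 in diestrus for each tissue and 90 libraries in all. Phases were assigned from stained vaginal smears taken daily, and serum estrogen and progesterone were measured as an aid. No mouse carried a transgene or was treated, and the question of each comparison is how the level of a gene differs between the 2 phases. The values are FPKM, a measure of fragments relative to transcript length and to all mapped fragments, so levels of different genes are compared per length of transcript.

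The pituitary gonadotropins FSH and LH act on the ovary through the receptors encoded by Fshr, on granulosa cells, and Lhcgr, on theca cells, luteal cells and granulosa cells of large follicles. Granulosa cells pair the alpha subunit Inha with the beta subunit Inhba or Inhbb to make inhibins, which lower FSH secretion, while beta subunits paired with each other make activins, which raise it and which follistatin binds and blocks. Amh is made by granulosa cells of growing follicles, signals through Amhr2 and restrains the recruitment of follicles, and Foxl2 keeps the granulosa cell identity.

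Fshr and Lhcgr lie on chromosome 17, Inha and Inhbb on chromosome 1, Inhba and Fst on chromosome 13, Amh on chromosome 10, Amhr2 on chromosome 15 and Foxl2 on chromosome 9. Inhba overlaps the pseudogene B230303A05Rik and Fst overlaps the long noncoding RNA gene Gm41074. Whether reads were assigned by strand is not given in the sources used here, so reads of these pairs may not have been told apart. The other 7 genes overlap no annotated gene.

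RefSeq promoter windows (GRCm38.p6) were found for 7 of the 9 genes, all but Amh and Fst. The 250 bases before the annotated start were searched on both strands for AGGTCA, a core motif that nuclear receptors such as the product of Nr5a1 bind. It was found in Lhcgr, Inha and Amhr2, 3 of 7 windows, against 13.8% of 27025 windows of this length. These 3 windows are shown because they hold it; each is written 5′ to 3′ on the strand of the gene, with the match in capitals.
Lhcgr, chr17:88792015-88792264, minus strand: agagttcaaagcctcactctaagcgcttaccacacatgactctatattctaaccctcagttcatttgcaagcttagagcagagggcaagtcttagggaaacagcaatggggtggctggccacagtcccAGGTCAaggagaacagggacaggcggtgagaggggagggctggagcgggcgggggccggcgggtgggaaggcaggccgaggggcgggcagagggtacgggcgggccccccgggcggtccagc
Inha, chr1:75507359-75507608, plus strand: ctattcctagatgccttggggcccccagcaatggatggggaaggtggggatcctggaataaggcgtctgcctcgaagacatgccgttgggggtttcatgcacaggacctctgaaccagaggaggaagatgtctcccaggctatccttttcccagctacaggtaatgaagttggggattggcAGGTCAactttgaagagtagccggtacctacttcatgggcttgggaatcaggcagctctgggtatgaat
Amhr2, chr15:102445117-102445366, plus strand: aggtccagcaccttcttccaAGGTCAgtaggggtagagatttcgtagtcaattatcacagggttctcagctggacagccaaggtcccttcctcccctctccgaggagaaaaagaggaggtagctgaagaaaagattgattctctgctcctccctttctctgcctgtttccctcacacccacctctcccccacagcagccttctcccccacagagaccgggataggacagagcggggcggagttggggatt

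The match begins 122 bases before the start in Lhcgr, 69 bases in Inha and 230 bases in Amhr2. The longer TCAAGGTCA, which contains it, was in none of the 7 windows and in 0.366% of all windows. Only this spelling of the longer form was searched, and the Amhr2 window reads CCAAGGTCA, which differs from it in the first letter. The core TGACG of the cyclic AMP response element (17.9% of all windows), the full site TGACGTCA that contains it (1.62%), the GATA motif AGATAA (10.3%) and the forkhead motif TGTTTAC (3.09%) were in none of the 7 either. A match is a description of the letters in this window and not a binding site. Read from its first base, the Inha window is an open frame of codons up to the letters caggtaatg, which have the form of a splice donor. The annotated start used for Inha therefore appears to lie within the gene. Neither its match nor its lack of the other motifs is read as a feature of the Inha promoter.

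The depth of a library, approximated from the steps between low FPKM values, came to 9.04M to 18.0M reads in 89 libraries and 0.0773M reads in brown adipose tissue (BAT) estrus replicate 3, which lists 12048 genes at 0. The 5 check markers of each tissue had a mean of at least 1 FPKM in all 15 tissues. Several libraries stood apart from their groups in marker genes: ovary and uterus estrus replicate 3 in oviduct genes, hypothalamus estrus replicate 2 in pituitary genes, and estrus replicate 1 of aorta, duodenum, WAT (white adipose tissue), stomach and uterus in smooth muscle genes. Their values are given beside the results they touch. In these bulk tissues, fewer cells of a type and less RNA per cell cannot be told apart.

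All 9 genes had their highest level in ovary, and the lowest ovary library lay above every one of the 84 other libraries for each of them. On the log2(FPKM + 1) scale, ovary exceeded the mean of the other 14 tissues by 4.17 for Fshr up to 8.50 for Inha. All 9 differences passed the test, with limits of 1 for the log2 difference and 0.05 for the adjusted p (limma, one fit of the 90 libraries, Benjamini-Hochberg adjustment over 17289 genes), as 19.9% of all tested genes did in this direction. Ranked by this difference over the 17289 genes, Inha stood at position 5, Lhcgr at 8, Amh at 9, Foxl2 at 13, Inhbb at 18, Inhba at 21, Amhr2 at 29, Fst at 36 and Fshr at 76. For Fshr and Lhcgr no other tissue reached a mean of 1 FPKM, so they entered this fit only through ovary. Their spread came mostly from libraries near 0, and their pass is not read as support. The study took 15 tissues from 3 mice per phase, so libraries of different tissues share a mouse. The labels do not say which, and the fit treats the 90 libraries as independent.

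**Figure D1:**
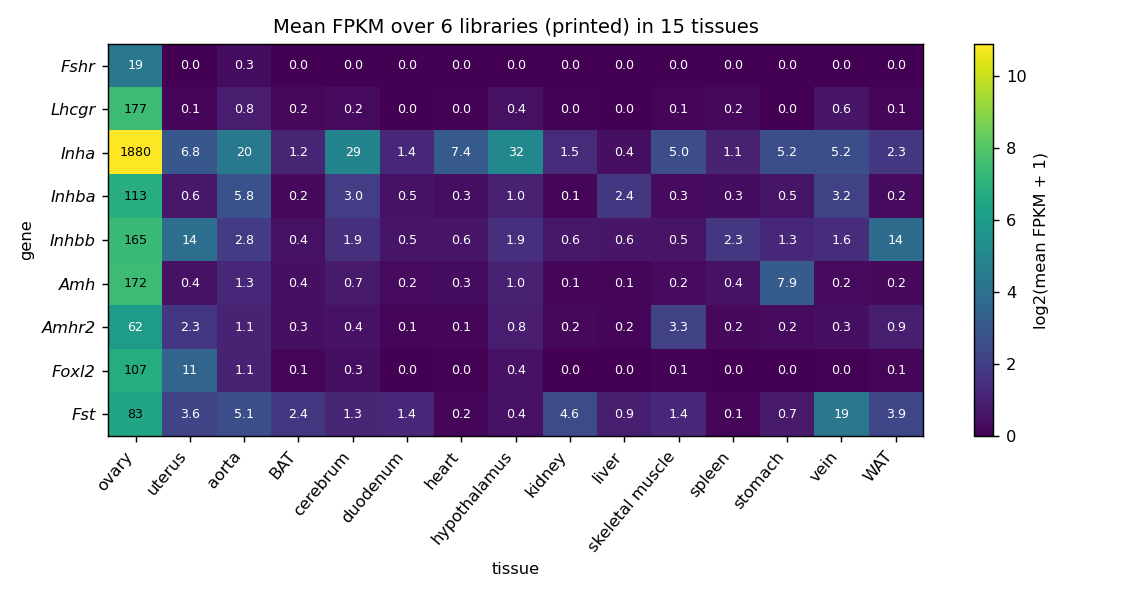
Mean FPKM of the 9 genes (rows) over the 6 libraries of each of 15 tissues (columns); the color gives log2 of the mean plus 1 and the printed number the mean itself. The ovary column holds the highest value of every row, from 19.4 FPKM for Fshr to 1879.5 FPKM for Inha.

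The levels within ovary differed widely between genes. Inha was at 1879.5 ± 454.4 FPKM (SD, n = 6), followed by Lhcgr at 177 FPKM, Amh at 172 FPKM and Inhbb at 165 FPKM, and Fshr had the lowest level at 19.4 FPKM. Foxl2 varied least over the 6 ovary libraries, with a coefficient of variation of 9.15%, and Lhcgr most, with 52.9%.

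Both gonadotropin receptors were near 0 in the 14 tissues other than ovary. Fshr was listed at 0 in 70 of the 84 other libraries, and its next tissue, aorta, had a mean of 0.298 FPKM, 64.9-fold below ovary. BAT estrus replicate 3, listed at 0 for all 9 genes, is in this count and the like ones, and at its depth a 0 says little of expression. Lhcgr was listed at 0 in 14 of these libraries, and aorta again came next, with 0.842 FPKM and 210.5-fold below ovary. In both cases that mean came from aorta estrus replicate 1, at 1.75 FPKM for Fshr and 4.33 FPKM for Lhcgr, while the other 5 aorta libraries held at most 0.04 and 0.3 FPKM. No tissue but ovary reached a mean of 1 FPKM for either receptor.

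The inhibin and activin subunits were less restricted. Inha had a mean of at least 1 FPKM in 13 of the 14 other tissues, all but liver, with 32.3 FPKM in hypothalamus and 29.0 FPKM in cerebrum, whose libraries overlapped. The next tissue, aorta, at 19.9 FPKM, owes its place to estrus replicate 1 at 104.1 FPKM, since the other 5 aorta libraries had 2.44 to 4.39 FPKM. Inhba, the beta A subunit, had a mean of at least 1 FPKM in 4 other tissues, aorta (5.76 FPKM), vein (3.24 FPKM), cerebrum (2.99 FPKM) and liver (2.35 FPKM), and each overlapped the next in the order. Aorta stood first through estrus replicate 1 at 21.5 FPKM, and the other 5 aorta libraries averaged 2.61 FPKM, below vein and cerebrum.

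Inhbb, the beta B subunit, was at 14.4 FPKM in uterus and 13.5 FPKM in WAT, which overlapped each other. In WAT it was at 18.6, 12.4 and 13.2 FPKM in estrus and 11.3, 12.0 and 13.6 FPKM in diestrus, so 5 libraries lay close together and estrus replicate 1 above them. The 6 smooth muscle genes summed to 2475 FPKM in that library and to 112 to 266 FPKM in the other WAT libraries. In uterus Inhbb ran from 2.69 FPKM in diestrus replicate 3 to 27.9 FPKM in diestrus replicate 1. The means of uterus and WAT were alike but their spread was not, with an SD of 3.37 FPKM in estrus and 1.15 FPKM in diestrus in WAT against 7.89 and 13.1 FPKM in uterus.

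Fst, the activin antagonist, was the least restricted to ovary, with vein next at 18.6 FPKM, 4.45-fold below ovary. Vein held 14.6, 14.3 and 18.2 FPKM in estrus and 13.1, 30.1 and 21.3 FPKM in diestrus, all above the 3.64 to 7.90 FPKM of aorta, the tissue that followed. From aorta downwards, through kidney (4.57 FPKM), WAT (3.94 FPKM) and uterus (3.65 FPKM), each tissue overlapped the next.

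Amh had stomach as its next tissue, at 8.20, 14 and 3.07 FPKM in estrus and 6.90, 7.39 and 7.70 FPKM in diestrus. Amh is known as a product of the gonads, and in the remaining 13 tissues its mean stayed below 1 FPKM except in aorta, at 1.33 FPKM with estrus replicate 1 and at most 0.25 FPKM in the other 5 libraries. Cst8, a cystatin family gene, was at 6.04 FPKM in stomach and 83.3 FPKM in ovary and at most 0.975 FPKM in the other 13 tissues. The oocyte genes, a list of 14 fixed with the design, summed to 1.06 to 4.95 FPKM in the stomach libraries against 169 to 383 FPKM in ovary.

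Amhr2, the Amh receptor, was at 3.25 FPKM in skeletal muscle and 2.34 FPKM in uterus, whose libraries overlapped. Foxl2 had uterus as its only other tissue above 1 FPKM apart from aorta, with 10.8 FPKM, and it was listed at 0 in 40 of the 84 libraries outside ovary. Uterine Foxl2 stood at 2.09, 11.5 and 6.47 FPKM in estrus and at 21.1, 8.46 and 15.2 FPKM in diestrus. The granulosa list of 20 other genes, several of which are also used by other tissues, summed to 104 to 277 FPKM in uterus and to 1491 to 2477 FPKM in ovary, and the oocyte list to 2.07 to 3.60 FPKM in uterus.

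In ovary, Fshr was at 9.54, 22.6 and 8.07 FPKM in estrus replicates 1 to 3 and at 31.1, 28.2 and 16.6 FPKM in diestrus replicates 1 to 3. The mean was 1.89-fold higher in diestrus, but estrus replicate 2 lay above diestrus replicate 3, so the phases overlapped. The log2 fold change of estrus against diestrus was -0.96 ± 0.39 (SE), with an unadjusted p of 0.0445 and an adjusted p of 0.828 (limma within ovary, 13587 genes), and the change did not pass the test.

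Lhcgr was at 79.5, 88.2 and 260.3 FPKM in the ovary libraries in estrus and at 109, 271 and 255 FPKM in diestrus. Its libraries fell into a low and a high set that did not follow the phase, since estrus replicate 3 was high and diestrus replicate 1 low. The log2 fold change was -0.68 (95% interval -1.93 to 0.57, adjusted p = 0.869, limma). Without estrus replicate 3 it was -1.22, with an adjusted p of 0.205. Over all runs that left out a single library it ranged from -1.22 to -0.37, with adjusted p from 0.205 to 0.999 (limma).

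Inha, the shared alpha subunit of the inhibins, was at 1499.8, 1997 and 1224 FPKM in estrus and at 2287, 2408 and 1861 FPKM in diestrus. Only estrus replicate 2 reached into the diestrus range, and the log2 fold change was -0.49 ± 0.21 (SE, unadjusted p = 0.0498, adjusted p = 0.837, limma). Inhba was at 55.4, 125 and 68.5 FPKM in estrus and at 162, 174 and 91.4 FPKM in diestrus, with a log2 fold change of -0.80 ± 0.35 (SE, adjusted p = 0.838, limma). Estrus replicate 2 again lay among the diestrus libraries.

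Inhbb gave nearly equal means, with 165, 202 and 121 FPKM in estrus and 165, 188 and 148 FPKM in diestrus. Its log2 fold change was -0.06 (95% interval -0.53 to 0.41). Fst was at 70.3, 97.2 and 56.3 FPKM in estrus and 97.7, 86.7 and 88.8 FPKM in diestrus, with a log2 fold change of -0.32 (95% interval -0.78 to 0.14).

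Amh was the only one of the 9 genes besides Amhr2 with a higher mean log2 level in estrus, at 240, 226 and 102 FPKM against 176, 131 and 159 FPKM in diestrus. The estrus libraries held both the highest and the lowest value, and the log2 fold change was 0.20 (95% interval -0.57 to 0.97). Amhr2 was at 77.1, 66.4 and 49.1 FPKM in estrus and at 61.2, 58.9 and 59.1 FPKM in diestrus, with a log2 fold change of 0.08 (95% interval -0.31 to 0.47). Foxl2 was at 110.1, 112 and 89.1 FPKM in estrus and at 105, 118 and 108 FPKM in diestrus, with a log2 fold change of -0.09 and the narrowest interval of the 9, from -0.38 to 0.20.

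None of the 9 genes passed the test in ovary, and neither did any of the 13587 genes tested there (0% called, limma), while 810 genes (5.96%) had an unadjusted p under 0.05, Fshr and Inha among them. The phases overlapped for all 9, against 13.7% of tested genes whose phases did not overlap. The log2 fold change was below 0 for 7 of the 9, beside 6321 of the 13587 tested genes. The median was -0.32 against 0.01 over all tested genes. Estrus replicate 2 and diestrus replicates 1 and 2 were the 3 highest libraries for Fshr, Inha, Inhba and Inhbb alike, and estrus replicate 3 the lowest for 7 of the 9 genes, all but Lhcgr and Inhba.

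**Figure D2:**
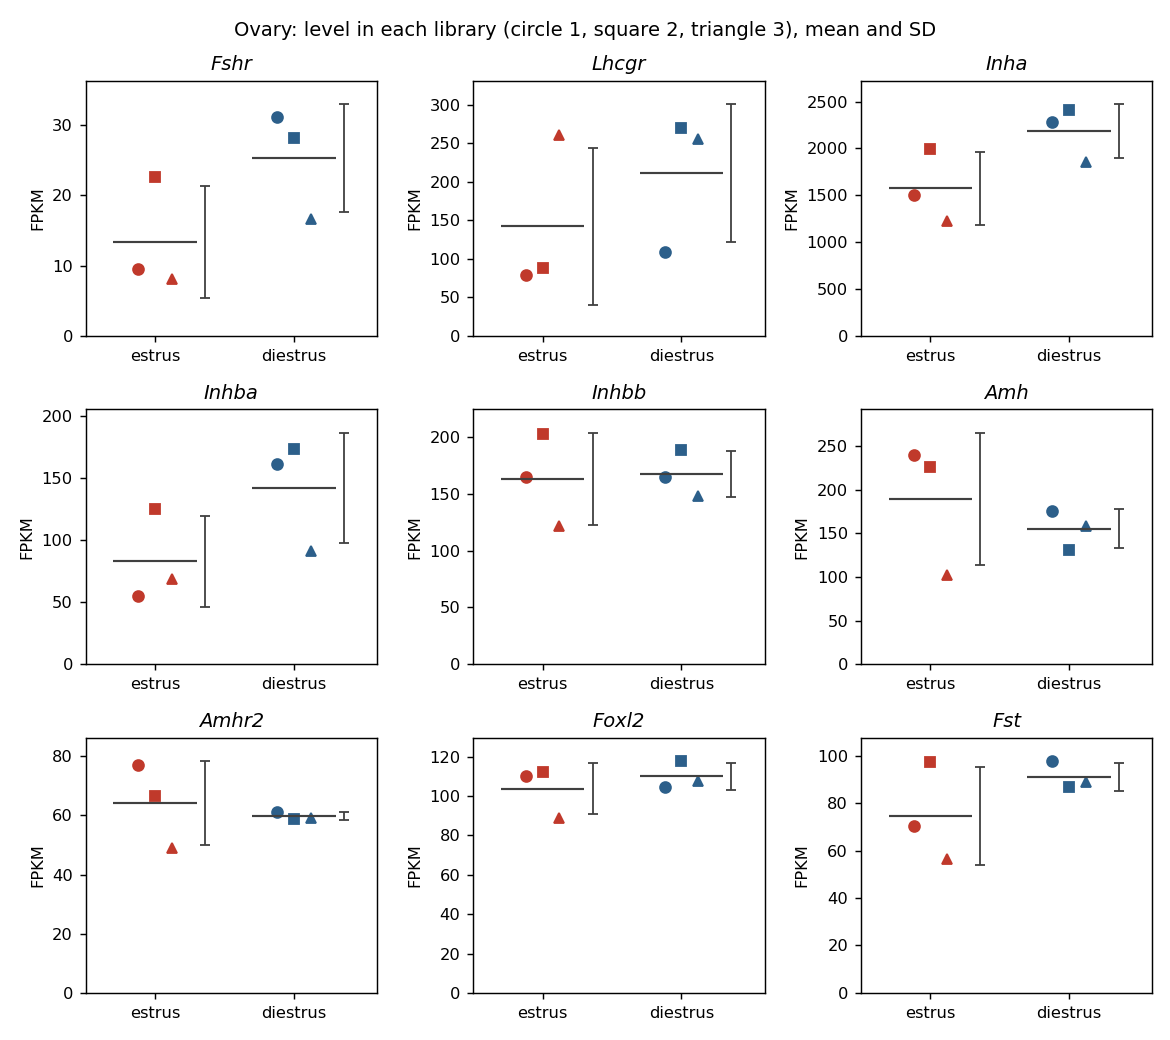
FPKM (vertical axis, linear, from 0) of the 9 genes in the 6 ovary libraries, with estrus in red and diestrus in blue; symbols give the replicate number, bars the mean and whiskers the SD (n = 3). The estrus and diestrus points overlap in every panel, and estrus replicate 3 (triangle) is the lowest point in 7 panels.

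Ovary estrus replicate 3 also stood apart in genes of the oviduct, the tube next to the ovary. The 8 oviduct epithelium genes summed to 21.6, 61.2 and 1838 FPKM in estrus replicates 1 to 3. In diestrus the sums were 4.71, 4.34 and 6.27 FPKM. Ovgp1, the oviductal glycoprotein, was at 12.4, 39.7 and 1563 FPKM in estrus and at 3.53, 2.35 and 4.67 FPKM in diestrus. All 8 genes had a log2 fold change above 0, and none passed the test. For 7 of them every estrus library lay above every diestrus library, beside 1104 of all 13587 tested genes. The oviduct sum was thus higher in each of the 3 estrus libraries, and leaving out estrus replicate 3 does not remove this. The part of this in the ovary values was not tested. Without estrus replicate 3 the log2 fold changes were -0.69 for Fshr (adjusted p = 0.405), -0.33 for Inha, -0.71 for Inhba, 0.59 for Amh (adjusted p = 0.136) and 0.26 for Amhr2 (limma), and those of Inhbb (0.14) and Foxl2 (0.02) changed sign.

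The ratio of the subunits does not depend on the scale of a library. Inha was 6.80-fold the sum of Inhba and Inhbb on average, with 6.81, 6.10 and 6.45 in estrus and 7.01, 6.66 and 7.78 in diestrus, so the phases overlapped (exact permutation test, two-sided, p = 0.2). The ratio of Inhba to Inhbb was 0.336, 0.616 and 0.566 in estrus and 0.980, 0.923 and 0.619 in diestrus, without overlap. Its log2 difference was -0.74, and the exact permutation p of 0.1 (two-sided, 20 splits) is the smallest that 3 against 3 can give. The gap between the phases was narrow, between 0.616 in estrus replicate 2 and 0.619 in diestrus replicate 3.

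Among the 20 other granulosa cell genes, 13 had a log2 fold change below 0 in ovary and 7 above, with a median of -0.15, and none passed the test. Of the 20, 7 had an unadjusted p under 0.05 and 5 had phases without overlap, 2 higher and 3 lower in estrus, beside the 5.96% and 13.7% of all genes. Cyp19a1, the aromatase that makes estrogen, was at 5.93, 21.3 and 7.64 FPKM in estrus and at 34.8, 36.2 and 13.4 FPKM in diestrus. As for Fshr, diestrus replicates 1 and 2 were the highest, estrus replicate 2 came next and diestrus replicate 3 after it. Its log2 fold change was -1.28 ± 0.52 (SE, adjusted p = 0.828, limma). Grem1, an antagonist of bone morphogenetic proteins, was at 0.32, 2.66 and 1.57 FPKM in estrus and at 11.3, 7.92 and 4.62 FPKM in diestrus. Its phases did not overlap, and its log2 fold change was -1.88 ± 0.43 (SE, adjusted p = 0.704, limma).

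The partners of the 9 genes in their pathways gave fold changes near 0. The first list held 15 genes: receptors, antagonists and Smads of activin and inhibin, and further beta subunits. Of these, 12 were tested in ovary, 9 above and 3 below 0, with a median of 0.04. Of the 14 genes of Amh and bone morphogenetic protein signalling, 6 were above and 8 below 0, with a median of -0.03. None of either list passed the test or had an unadjusted p under 0.05. Tgfbr3l, an inhibin co-receptor, had the largest absolute fold change of the first list, at -0.31 on the log2 scale, and Bmp6, a ligand, of the second, at -0.28.

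Of the 16 genes of the response to the LH surge, 9 were tested, 8 above and 1 below 0, with a median of 0.32, and none passed the test or had an unadjusted p under 0.05. Runx1, a transcription factor, was at 21.4, 18.9 and 9.50 FPKM in estrus and at 12.3, 7.82 and 8.94 FPKM in diestrus, with a log2 fold change of 0.67 (adjusted p = 0.838, limma). The protease Adamts1 had 0.77 (adjusted p = 0.838). The oocyte list was below 0 for 13 of 14 genes, beside 6321 of all 13587 tested genes. Its median was -0.20, and 1 gene had an unadjusted p under 0.05, beside 5.96% of all genes. Its lowest sum, 169 FPKM, was that of estrus replicate 3 against 303 to 383 FPKM in the others.

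The luteal list was below 0 for 7 of 12 genes, with a median of -0.09, beside 6321 of all 13587 tested genes. Of the 12, 3 had an unadjusted p under 0.05, beside 5.96% of all genes. Its sums were 8268, 6949 and 7353 FPKM in estrus and 7242, 9989 and 10683 FPKM in diestrus. Diestrus replicates 2 and 3, the highest of these, were also high for Lhcgr, but estrus replicate 3, the third library with high Lhcgr, had a luteal sum in the range of the low ones. The luteal sum is led by Hsd3b1 and Cyp11a1, with ovary means of 3796 and 2644 FPKM against 552 FPKM for Sfrp4. Hsd3b1 and Cyp11a1 are also on the theca list, so the sum is not a measure of luteal cells alone.

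The phase difference in ovary was also set against the mean phase difference of the other 14 tissues in one fit of the 90 libraries. Fshr and Lhcgr entered this fit only through ovary, since no other tissue reached a mean of 1 FPKM, so for them the contrast holds little but the ovary change, set against a spread taken mostly from libraries near 0. The median SD of Fshr in the other 28 groups was 0 on the log2 scale, against 0.74 in ovary estrus and 0.46 in ovary diestrus. No phase difference of ovary from other tissues is therefore read for either receptor, and their values within ovary are those given above. None of the other 7 genes had an adjusted p of at most 0.05, as had 0.463% of 17289 genes, and the largest difference among them was that of Inhba, at -0.79 ± 0.32 (SE) on the log2 scale (adjusted p = 0.570, limma).

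Across all tissues, 50 pairs of a gene and a tissue had a mean of at least 1 FPKM, 41 of them outside ovary. None passed the test between the phases, and of all genes tested over the 15 tissues 2 did, 0.00108% of the tests (limma). Of the 50 pairs, 6 had an unadjusted p under 0.05, against 7.84% of all tests. The phases did not overlap in 5 of the 50, 3 lower and 2 higher in estrus, against 15% of all tests. The pairs below this limit, 85 in number, were not tested.

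**Figure D3:**
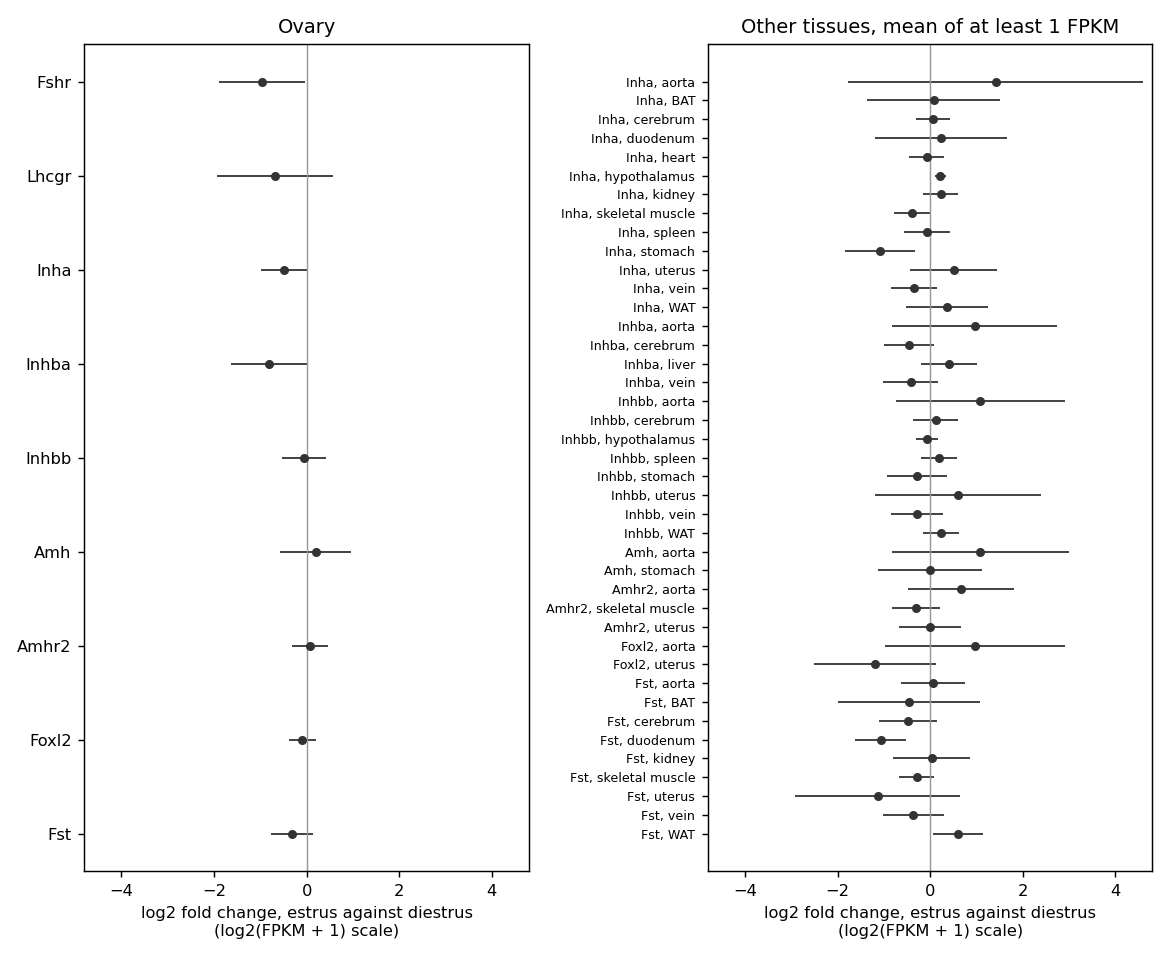
Log2 fold change of estrus against diestrus (horizontal axis, log2(FPKM + 1) scale) with its 95% interval from limma, for the 9 genes in ovary (left) and for the 41 gene and tissue pairs outside ovary with a mean of at least 1 FPKM (right). Of the 50 intervals 6 exclude 0: those of Fshr and Inha in ovary, Inha in stomach (-1.08) and Fst in duodenum (-1.07) lie below 0 and those of Inha in hypothalamus (0.22) and Fst in WAT (0.60) above; the widest is that of Inha in aorta.

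Fst in duodenum was at 0.59, 0.51 and 0.42 FPKM in estrus and at 2.55, 2.54 and 1.52 FPKM in diestrus. Every diestrus library lay above every estrus library, at a low level, as for 22.1% of the genes tested in duodenum in this direction. The log2 fold change was -1.07 ± 0.23 (SE, adjusted p = 0.368, limma within duodenum). The 6 smooth muscle genes summed to 1634, 152 and 165 FPKM in the estrus libraries of duodenum and to 347, 340 and 418 FPKM in those in diestrus. Fabp2, a fatty acid binding protein of the enterocyte and a check marker of duodenum, was at 1107, 4570 and 3830 FPKM in estrus and at 1499, 1732 and 2795 FPKM in diestrus. Their part in the difference was not tested, and without estrus replicate 1 the log2 fold change of Fst was -1.11 (adjusted p = 0.125, limma).

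Fst in WAT went the other way, at 6.16, 3.47 and 5.23 FPKM in estrus and 3.93, 2.65 and 2.17 FPKM in diestrus, and its phases overlapped. The log2 fold change was 0.60 (95% interval 0.05 to 1.15, adjusted p = 0.791, limma within WAT) and 0.46 without estrus replicate 1, the library with the high smooth muscle sum. The change in duodenum was not tested against that in WAT.

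In stomach, Inha was at 3.37, 2.18 and 3.01 FPKM in estrus and at 4.58, 11.3 and 6.62 FPKM in diestrus, again without overlap, as for 12% of the genes tested there in this direction. Its log2 fold change was -1.08 ± 0.31 (SE, adjusted p = 0.671, limma). The stomach libraries differed in makeup: the smooth muscle genes summed to 4596, 238 and 1626 FPKM in estrus and to 1222, 535 and 515 FPKM in diestrus, and Gif, the gene of gastric intrinsic factor, was at 35.0 FPKM in estrus replicate 3 against 352 to 806 FPKM in the other 5. Their part in the difference was not tested, and the log2 fold change was -1.17 without estrus replicate 1 and -1.11 without estrus replicate 3.

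Inha in skeletal muscle was at 2.92, 4.48 and 5.26 FPKM in estrus and between 5.64 and 5.74 FPKM in diestrus, with a log2 fold change of -0.39 (adjusted p = 0.242), and 21.9% of the genes tested there had lower estrus libraries without overlap.

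Inha in hypothalamus was at 36.9, 35.3 and 32.5 FPKM in estrus and at 28.7, 30.0 and 30.5 FPKM in diestrus. The phases did not overlap, as for 9.96% of the genes tested there in this direction, but the difference was small, at 0.22 ± 0.05 on the log2 scale (SE, adjusted p = 0.233, limma). The 9 pituitary genes summed to 31941 FPKM in hypothalamus estrus replicate 2 against 42.8 to 399.95 FPKM in the other 5. The part of this in the Inha difference was not tested. Inha was highest in estrus replicate 1, and without estrus replicate 2 the log2 fold change was 0.21 (adjusted p = 0.182). The last of the 5 pairs, Amhr2 in aorta, is given with the aorta libraries.

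Foxl2 in uterus had a log2 fold change of -1.18 (95% interval -2.50 to 0.14, adjusted p = 0.897, limma within uterus), and its phases overlapped. It was -0.64 without estrus replicate 1, the library with the lowest Foxl2, in which the smooth muscle genes summed to 4124 FPKM against 930 to 2720 FPKM in the other uterus libraries. Inhbb in uterus had 0.60 (95% interval -1.19 to 2.39). Fst in uterus was at 0.71, 1.00 and 1.77 FPKM in estrus and at 1.42, 1.53 and 15.5 FPKM in diestrus, so its log2 fold change of -1.14 rested on 1 library and was -0.23 without diestrus replicate 3. That library stood apart in other genes as well, with the homeobox gene Hoxa10 at 170 FPKM against 7.55 to 58.4 FPKM, Hand2 at 68.4 FPKM against 6.78 to 19.4 FPKM and a sum of the 7 mesothelial and surface epithelium genes of 223 FPKM against 802 to 1116 FPKM, and their part in the value of Fst was not tested. Uterus estrus replicate 3 had an oviduct list sum of 3541 FPKM against 60.0 to 187 FPKM in the others; without it the log2 fold changes of Foxl2, Inhbb and Fst were -1.27, 1.02 and -1.33. One fit of the 90 libraries, with one spread for all tissues, called Foxl2 in uterus (adjusted p = 0.00544), Fst in uterus (adjusted p = 0.0361) and Fst in duodenum (adjusted p = 0.0465), together with 3084 calls in all.

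**Figure D4:**
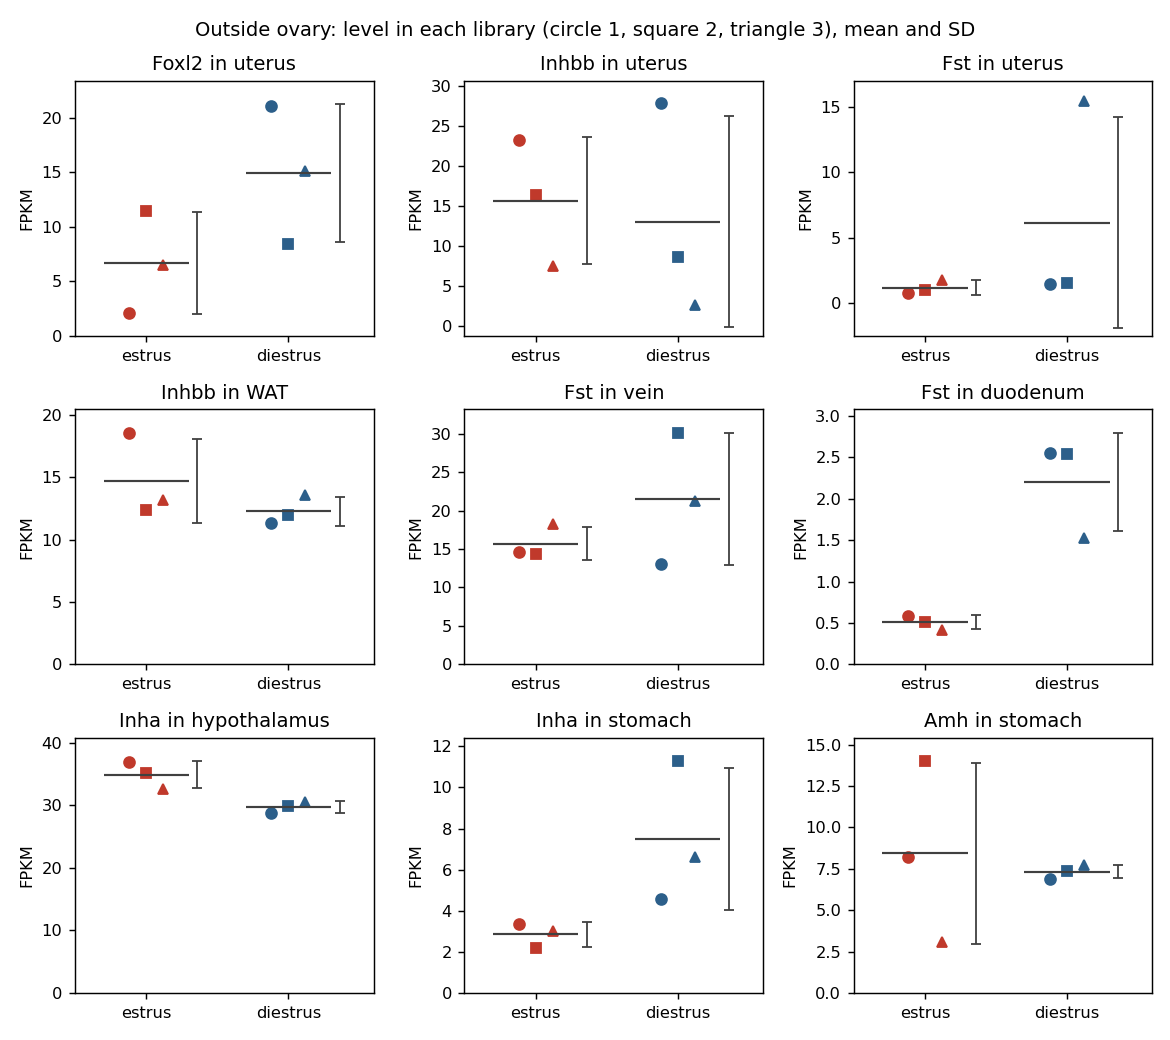
FPKM (vertical axis, linear) in the 6 libraries of a tissue for 9 gene and tissue pairs outside ovary, with estrus in red and diestrus in blue; symbols give the replicate number, bars the mean and whiskers the SD (n = 3). The phases do not overlap for Fst in duodenum, Inha in hypothalamus and Inha in stomach, and 1 diestrus library, at 15.5 FPKM, sets the mean of Fst in uterus.

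Aorta estrus replicate 1 held more of all 9 genes than each of the other 5 aorta libraries. Inha was at 104.1 FPKM in it, Inhba at 21.5 FPKM, Inhbb at 12.2 FPKM, Amh at 7.38 FPKM, Foxl2 at 6.65 FPKM and Amhr2 at 4.01 FPKM. In the others Inhba had 1.95 to 3.60 FPKM, Inhbb 0.43 to 1.31 FPKM, Amhr2 0.45 to 0.67 FPKM, and Foxl2 at most 0.07 FPKM. Fst stood least above the rest, with 7.90 FPKM against 3.64 to 6.16 FPKM. Of the 7813 genes whose ovary mean reached 10 FPKM, 47.5% also had their highest aorta value in this library, so the count of 9 is read against that share.

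The excess over the mean of the other 5 aorta libraries came to 2.36% of the ovary mean for Lhcgr, 4.03% for Fst, 4.22% for Amh, 5.38% for Inha, 5.57% for Amhr2, 6.19% for Foxl2, 6.83% for Inhbb, 9.0% for Fshr and 16.8% for Inhba. The 3 most abundant genes of the theca list, all enzymes of steroid synthesis, gave 3.53% (Hsd3b1), 4.13% (Cyp11a1) and 1.12% (Cyp17a1). The theca list lay above the other 5 libraries for 5 of its 8 genes, and the luteal list for 6 of its 12. Over the 7 theca genes with at least 10 FPKM in ovary the excess ran from -16.8% to 13.8%, with a median of 1.12%. Of the 14 oocyte genes, 13 lay above the other 5 libraries, with Sohlh1 listed at 0, and the 10 with at least 10 FPKM in ovary had a median excess of 2.45%. The granulosa list lay above them for 13 of its 20 genes, with an excess of 3.94%, 88.5% and 5.59% of the ovary mean for Gja1, Serpine2 and Hsd17b1, its 3 most abundant genes in ovary, and of 9.56% for Cyp19a1, while Grem1 was within the range of the others. Over the 17 granulosa genes with at least 10 FPKM in ovary the excess ran from -128% (Prkar2b) to that of Serpine2, with a median of 4.67%; Ccnd2 had 84.5% and Gata4 and Wt1 had none. The oviduct list lay above them for 1 of 8 genes, Ovgp1 at 2.24 FPKM. The adrenal cortex list did so for 3 of 8, of which Star and Cyp11a1 are also luteal genes and Cyp11b1 was at 0.11 FPKM. The source of this RNA was not tested.

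The same library differed in other ways. Its 6 smooth muscle genes summed to 16872 FPKM against 1623 to 2793 FPKM in the other aorta libraries, and its 6 adipocyte genes to 2566 FPKM against 12339 to 16834 FPKM. With it, the log2 fold changes of estrus against diestrus in aorta were 1.42 for Inha, 0.96 for Inhba, 1.08 for Inhbb, 1.08 for Amh, 0.96 for Foxl2, 0.66 for Amhr2 and 0.06 for Fst, with adjusted p between 0.933 and 0.972 (limma). Without it they lay between -0.21 for Fst and 0.19 for Inhbb, and Inha was at -0.20. The phases of Amhr2 did not overlap in aorta, as for 2.39% of tested genes in this direction, with 4.01, 0.61 and 0.67 FPKM in estrus and 0.60, 0.45 and 0.47 FPKM in diestrus, and its log2 fold change fell to 0.12 without estrus replicate 1.

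**Figure D5:**
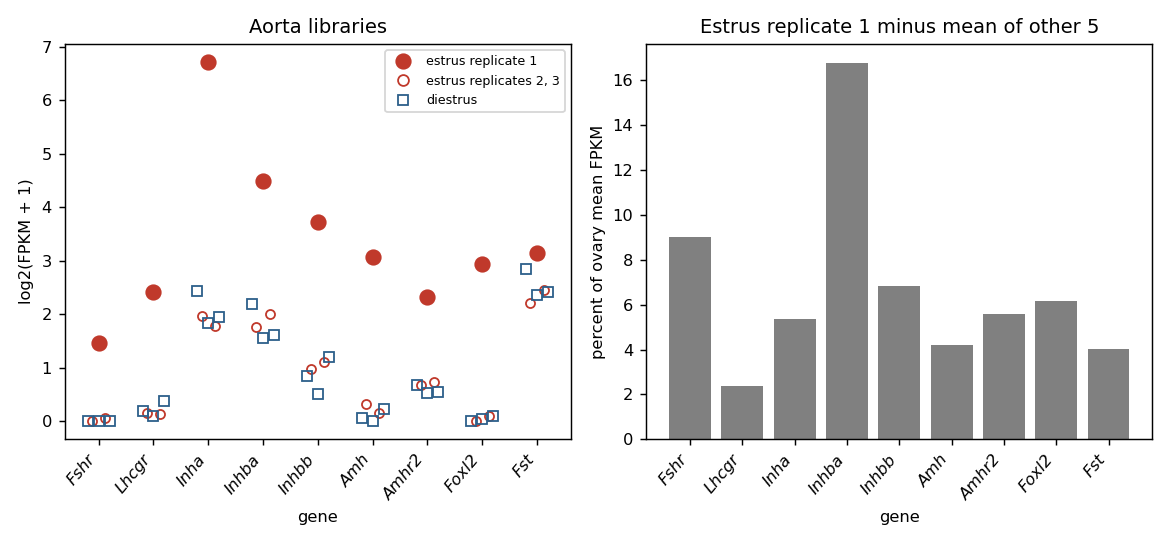
Left, log2(FPKM + 1) of the 9 genes in the 6 aorta libraries, with estrus replicate 1 as filled circles, estrus replicates 2 and 3 as open circles and diestrus as open squares; right, the excess of estrus replicate 1 over the mean of the other 5 as percent of the ovary mean FPKM. Estrus replicate 1 is the highest library for all 9 genes, with an excess of 2.36% to 16.8%.

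The genes whose levels were most like those of each of the 9 over the 90 libraries were named by Pearson's r of log2(FPKM + 1) among 17209 genes. These are descriptions over libraries that share tissues, and in 6 of them, those of ovary, all 9 genes were at their highest. Fshr was most like Cyp19a1 (r = 0.995), Lhcgr like Txndc2 (r = 0.987), Amh like Cst8 (r = 0.977), Foxl2 like Greb1 (r = 0.962), Amhr2 like Hsd3b1 (r = 0.935), Inhba like Cnmd (r = 0.934), Inha like Prcd (r = 0.928), Inhbb like Pabpc1l (r = 0.901) and Fst like Dhh (r = 0.890). Among the 9 genes themselves the highest r was that of Fshr and Lhcgr (0.972) and the lowest that of Inha and Fst (0.598).

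Over the 84 libraries outside ovary the order changed. Amh stayed most like Cst8 (r = 0.920) and Fst most like Dhh (r = 0.798). Inha was most like Pnck (r = 0.906), Foxl2 like Cxcl15 (r = 0.899), Inhba like Epha3 (r = 0.832), Inhbb like Gm46340 (r = 0.806), Lhcgr like Cyp19a1 (r = 0.799) and Amhr2 like Six4 (r = 0.774). For Fshr, most like Nlrp9a (r = 0.992), aorta estrus replicate 1 was the only library outside ovary with more than 0.06 FPKM. That library also held the most Lhcgr outside ovary, 4.33 FPKM against at most 0.79 FPKM in vein, and it had Cyp19a1 at 1.95 FPKM. Foxl2 and Inhbb, both present in uterus, had r = 0.590 with each other, Foxl2 and Amhr2 had 0.587, and Inha and Fst -0.03.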

How the data were processed

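RNA of 15 tissues from female mice in estrus or diestrus was sequenced on the BGISEQ-500 platform, with 3 libraries per tissue and phase, named by tissue, phase and replicate from the sample labels. The authors removed low-quality and adaptor reads with SOAPnuke, aligned the rest with Bowtie2 2.2.5 to GRCm38 (patch 5) and estimated abundance with RSEM 1.2.8. The deposited table holds FPKM of 20414 genes per library, without counts, totals or a unit name; the unit was taken from the values, whose sums per library differ (353706 to 623534). FPKM is relative to the mapped reads of a library, so a few very abundant genes lower all others. RefSeq (GRCm38.p6) gave symbols for 20265 genes.

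Within a tissue, genes whose mean over its 6 libraries reached 1 FPKM were compared as log2(FPKM + 1) by limma 3.58.1 (R 4.3.3), using a trend of the spread on intensity and no block. The p-values were adjusted by the method of Benjamini and Hochberg for each tissue. A call needed an absolute log2 fold change of 1 or more together with an adjusted p of 0.05 or less, the limits of the study, whose own test on reads was not repeated. Fold changes on this scale understate the change of low genes. The p-values measure the spread between 3 mice per phase. Ovary was compared with the mean of the other 14 tissues in one fit of all 90 libraries with one mean per tissue and phase. Ratios were compared by exact permutation of 3 against 3. On simulated ovary data of 13587 genes with 200 changed genes, 78% of changes of 1.5 and 95% of changes of 3 on the log2 scale were recovered, each with 1 false call. Changes below 1.5 were not simulated. The largest absolute ovary change among the genes described here was that of Fshr, at -0.96. The recovery rates therefore do not show how often changes of that size would be called, and they are not read as support for the absence of calls in ovary.

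Reads per library were approximated from the steps between low values of 726 short genes; in the 89 deeper libraries 56.3% to 81.3% of these values were whole multiples within 0.2 reads, so counts were not recovered and no count test was run. The 9 genes, the gene lists and the motifs were chosen with earlier results of these data known. The 9 genes are named in tissues with a mean of at least 1 FPKM; of a list, the 3 most abundant genes in ovary and the 2 with the largest absolute log2 fold change in ovary may be named, and Ovgp1, Cyp11b1, Sohlh1, Cst8, Prkar2b, Ccnd2, Gata4 and Wt1 were named as exceptions after their values were seen or by likeness. Pearson's r named the 3 most similar genes, of which the first is printed. Pairing of estrus with diestrus by replicate number was not used: in no tissue did all 3 same-numbered pairs deviate together with a correlation over 0.1. The phases come from different mice in the study, so this check does not bear on mice shared across tissues. Whether a replicate number stands for the same mouse in several tissues was not checked. Alternatives changed the pseudocount, the filter, the scale, the trend, the fit and the block, and left out single libraries. Python 3.11.15 with numpy 2.4.6, pandas 2.3.3, scipy 1.17.1 and matplotlib 3.10.9 was used for the rest.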

Additional observations from a re-analysis of the deposited data

Results flagged for a closer look

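In groups of 6 libraries, the highest or lowest value was set against the range of the group by Dixon's test. Outside aorta it picked out 5 of 43 gene and tissue pairs, where chance gives about 1 in 20. In aorta it picked out 6 of 7, all of them values of estrus replicate 1. That this library deviates was known from earlier results, so these 6 are a description of 1 library and support nothing. It had Inha at 104.1 FPKM, Inhba at 21.49 FPKM, Inhbb at 12.2 FPKM, Amh at 7.38 FPKM, Amhr2 at 4.01 FPKM and Foxl2 at 6.65 FPKM, each far above the other 5 libraries. Fst, at 7.90 FPKM, was highest there too but not apart by this test.

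Those outside aorta were Inha in cerebrum estrus replicate 3 (38.38 FPKM against 25.7 to 29.2 FPKM), Inha in duodenum estrus replicate 1 (5.05 FPKM against 0.21 to 0.95 FPKM), Inhbb in vein diestrus replicate 3 (2.95 FPKM against 1.11 to 1.61 FPKM), Inhbb in WAT estrus replicate 1 (18.59 FPKM against 11.3 to 13.6 FPKM) and Fst in uterus diestrus replicate 3 (15.47 FPKM against 0.71 to 1.77 FPKM). The 6 smooth muscle genes summed to 1634 FPKM in duodenum estrus replicate 1 against 152 to 418 FPKM in the other duodenum libraries, and to 2475 FPKM in WAT estrus replicate 1 against 112 to 266 FPKM in the other WAT libraries. Whether this bears on the values of Inha and Inhbb was not tested.

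The phase difference of Fshr in ovary differed from its mean in the other 14 tissues by -0.995 on the log2 scale (limma, adjusted p = 0.000637). Fshr entered that fit only through ovary and is listed at 0 in 70 of the 84 other libraries, so the value restates the ovary change and is not read as a difference between tissues. The adjusted p was 0.365 with a pseudocount of 0.1 and 0.05002 without ovary estrus replicate 3.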

How the results depend on the processing

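All 9 genes stayed higher in ovary than in the mean of the other 14 tissues, and past the limits, under each alternative run. Fshr and Lhcgr entered the main fit only through ovary, so for them this is not read as support. No call of the 9 genes between the phases was made under another pseudocount, filter, scale or trend, or without any single library; one fit of all 90 libraries made 3. Over all genes and tissues the count of 2 calls went to 1 without a filter, to 3084 in one fit of all 90 libraries, and to between 1 and 103 with replicates left out (103 without estrus replicate 1 of each tissue). In ovary the count of 0 went to 46 in one fit of all 90 libraries and to between 0 and 2 with replicates left out (2 without estrus replicate 3). The count of 1 gene with a phase effect in ovary unlike that of other tissues, Fshr, rests on a gene near 0 outside ovary and went to 0 with a pseudocount of 0.1, where Fshr was at -1.13, and was 1 without the deviating aorta estrus 1 and BAT estrus 3 libraries, an alternative chosen after seeing the data. With a replicate block, 5 genes were called over the 15 tissues, none of the 9 among them, and no other call changed. The numbers do not pair estrus with diestrus libraries within a tissue, so such a block does not follow from the design.

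Signs changed near 0: with a pseudocount of 0.1, Inha in BAT was at -0.31, Inha in duodenum at -0.0086 and the ovary effect of Amh against other tissues at -0.15, and with upper quartile scaling Amhr2 in uterus was at 0.020 (log2). Leaving out single replicates gave log2 fold changes that crossed 0, from -0.20 to 2.27 for Inha in aorta, -0.21 to 0.26 for Fst in aorta, -0.23 to 0.60 for Inha in BAT, -0.90 to 0.23 for Fst in BAT, -0.49 to 0.67 for Inha in duodenum, -0.23 to 0.082 for Inha in heart, -0.13 to 0.15 for Inha in cerebrum, -0.10 to 0.26 for Inhbb in cerebrum, -0.22 to 0.11 for Inha in spleen, -0.042 to 0.65 for Inha in WAT, -0.36 to 0.41 for Fst in kidney, -0.44 to 0.50 for Amh in stomach, -0.12 to 0.11 for Amhr2 in uterus and -0.13 to 1.36 for Inhbb in uterus. In ovary the ranges were -0.021 to 0.59 for Amh, -0.065 to 0.26 for Amhr2, -0.23 to 0.14 for Inhbb and -0.15 to 0.016 for Foxl2. Against the other tissues they were -0.16 to 0.45 for Amh, -0.093 to 0.23 for Amhr2, -0.15 to 0.012 for Foxl2 and -0.36 to 0.030 for Fst. For the other changes the cause was not tested. Depth was only approximated and entered no test; genes under a mean of 1 FPKM in a tissue were not tested there.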
